A study of Mus musculus with 6 samples.

Results

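The genes described here encode the degrading enzymes of the lysosome, the proteins of its membrane and the V-ATPase, the proton pump that acidifies it. They were chosen by name, as every gene of the deposited table whose name starts with Atp6v or Atp6ap, plus 33 listed lysosomal genes, of which 1 (Limp2) had no entry under that name. That gave 58 of the 24848 genes in the table. The proton pump contributed 27 genes, the hydrolases and their activator proteins 24, the membrane proteins 4, and the MiT transcription factors Tfeb, Tfe3 and Mitf the other 3. Poly(A)-selected RNA was sequenced from RAW 264.7 cells, a mouse macrophage line, and the levels were deposited as CPM, the count of a gene scaled to a fixed total. The WT group was 3 libraries of the line itself, and the KO group was 3 libraries of the same line with an APOBEC1 knockout, APOBEC1 being a cytidine deaminase that edits RNA. All 6 libraries came from separate plates in one medium, so p-values measure the spread between plates. The labels say neither by which method the gene was knocked out nor whether the KO cells are 1 clone, so effects of genotype cannot be told apart from other differences between the 2 lines.

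Lysosomal hydrolases work at acidic pH and cut proteins, glycans, lipids and sulfate esters that reach the lysosome by phagocytosis, endocytosis or autophagy. The V-ATPase has a cytosolic V1 sector, which hydrolyses ATP, and a membrane V0 sector, through which protons pass, and several of its subunits exist in alternative forms encoded by different genes. Tfeb, Tfe3 and Mitf bind short promoter elements that are shared by many of these genes and are known to raise their transcription when nutrient signalling at the lysosome falls. In macrophages this system digests engulfed material, and in osteoclasts, which share their precursors, a pump with the a3 form of subunit a acidifies the bone surface.

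The libraries held between 50493447 and 70411383 reads. Apobec1 itself had 400 ± 29.3 CPM in WT and 347 ± 12.5 CPM in KO (SD, n = 3 each; limma adjusted p = 0.0663), so its reads did not mark the knockout. All 10 macrophage markers passed the filter, with 3 higher and 3 lower in KO, where 13.5% of all tested genes were higher and 16.9% lower. The least abundant of them averaged 0.80 CPM over all libraries, so it cannot have reached the filter's 1 CPM in every library. The counts for this list are therefore a description only. The summed level of these markers was 2773 to 2866 CPM in WT and 3113 to 3452 CPM in KO. Of 9 osteoclast markers 3 passed the filter, none was at 0 in all libraries, and the list summed to 444 to 454 CPM in WT and 131 to 139 CPM in KO. Of these, Ctsk, the bone-degrading cathepsin K, fell from 365 ± 4.62 to 54.97 ± 2.81 CPM and Itgb3, an integrin, from 6.08 ± 0.72 to 0.55 ± 0.15 CPM. Itgb3 passed the filter only through its WT libraries. Nfatc1, a transcription factor, was not called (75.8 ± 2.13 and 78.3 ± 5.21 CPM). Of 5 dendritic cell markers 2 passed the filter, of which Itgax rose (6.96 ± 0.27 to 30.9 ± 2.79 CPM) and Zbtb46 fell (4.34 ± 0.43 to 1.62 ± 0.18 CPM). Of 5 T cell markers only Lck passed, and it rose (3.99 ± 0.60 to 6.71 ± 0.44 CPM). The summed fibroblast, epithelial and B cell markers stayed below 0.4 CPM in every library. In bulk samples, fewer cells of a type and less RNA per cell cannot be told apart.

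Promoters were compared first, because a short element bound by the MiT factors, TCACGTG, searched for on both strands, is a known feature of this gene family. RefSeq promoter windows, from 250 bases before to 50 bases after the start of each gene (build GRCm38.p6), were matched to 48 of the 58 genes, of which 41 were tested. A gene was counted if any of its windows held the element. That was so for 13 of these 41 genes (31.7%), against 632 of 8487 tested genes with a window (7.45%). Of all 27025 genes with a window, tested or not, 4.29% held it. The following 30-base stretches, 5′ to 3′ on the strand of the gene with the element in capitals, show it in 3 genes that were higher in KO (Lgmn, Sgsh, Gla), 3 that were lower (Arsa, Naglu, Mcoln1) and 3 that were not called (Atp6v1a, Atp6v0d1, Lamp1).
Lgmn, chr12:102439124-102439153, minus strand: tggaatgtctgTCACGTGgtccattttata
Sgsh, chr11:119355521-119355550, minus strand: ggcctgccgtgCACGTGAccgtggggagcg
Gla, chrX:134601215-134601244, minus strand: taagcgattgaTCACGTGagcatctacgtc
Arsa, chr15:89477423-89477452, minus strand: tcaactcagtgTCACGTGttgtctgctcct
Naglu, chr11:101070009-101070038, plus strand: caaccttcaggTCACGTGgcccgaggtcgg
Mcoln1, chr8:3500436-3500465, plus strand: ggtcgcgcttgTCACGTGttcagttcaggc
Atp6v1a, chr16:44139373-44139402, minus strand: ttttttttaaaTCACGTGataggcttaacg
Atp6v0d1, chr8:105566050-105566079, minus strand: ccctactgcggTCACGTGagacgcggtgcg
Lamp1, chr8:13159088-13159117, plus strand: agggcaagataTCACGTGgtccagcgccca

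Atp6v0b, Atp6v0e, Gaa and Glb1, also not called, completed the 13. Lamp1 held 4 matches in its window, the most of any of these genes, while Gla, Mcoln1 and Atp6v0b held a pair each. By class, the element was found for 4 of 12 pump genes, 7 of 22 hydrolase genes, 2 of 4 membrane protein genes and 0 of 3 genes of the MiT factors themselves. Among the lysosomal genes, each gene with the core CACGTG also had the 7-base form. Of all tested genes with a window, 12.3% had the core, with or without the 7-base form. The palindrome TCACGTGA was present for 5 of the 41 genes against 2.32% of all tested genes with a window. A longer palindrome, which extends it at both ends, was present for 0 of the 41 genes against 0.92% of all tested genes with a window. With so low a share among all tested genes, 41 genes are too few to tell 0 from that share. A match is a description of the letters and not evidence of binding.

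A gene was tested if it reached 1 CPM in 3 or more libraries, and of the 10614 that did, 30.4% were called in limma, meaning a Benjamini-Hochberg adjusted p under 0.05 (13.5% higher and 16.9% lower in KO). The filter left 49 lysosomal genes, since 9 pump genes were below it. Of these 49, 11 were higher in KO, 7 were lower and 31 were not called, so that 36.7% were called, near the share among all genes. Their median log2 difference, KO minus WT on log2(CPM + 0.5), was 0.03, and that of all tested genes was -0.02. The groups did not overlap for 27 of the 49, against 46.4% of all tested genes. A called difference of at least 1.5-fold was found for 4 of them, Atp6v0d2, Lgmn, Arsb and Sgsh, where 10.1% of all tested genes had one, and only Atp6v0d2 of the tested lysosomal genes passed 2-fold, where 3.69% of all tested genes did. The lysosomal genes thus changed in both directions, mostly by small amounts.

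**Figure D1:**
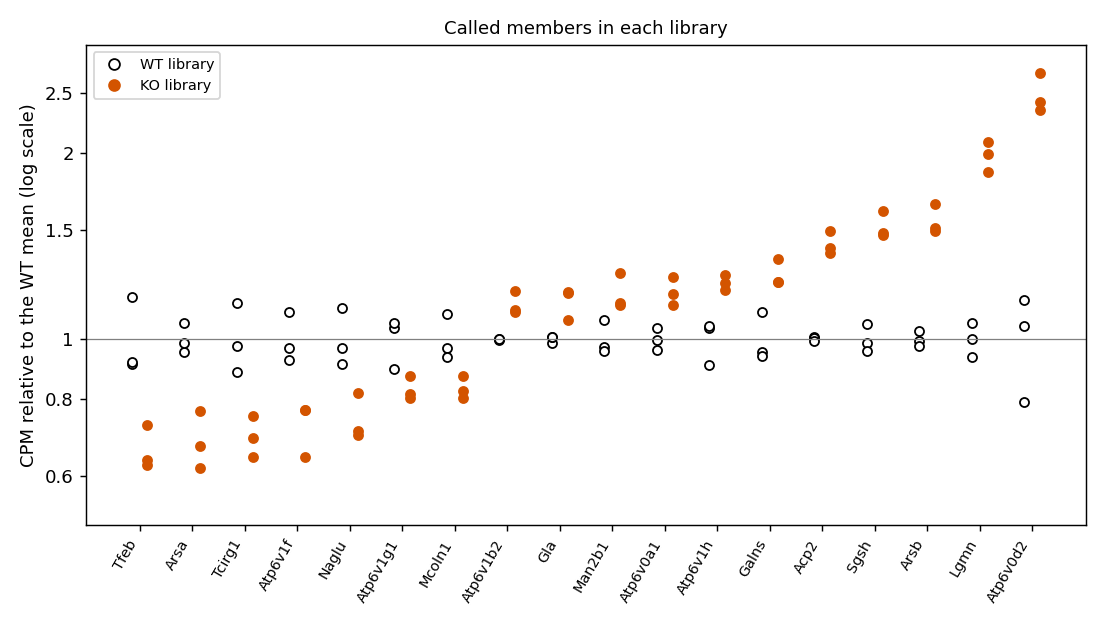
Level of the 18 called lysosomal genes in each library, divided by the mean of the 3 WT libraries, on a log axis; open circles are WT and filled circles KO. The 7 genes at the left, from Tfeb to Mcoln1, have every KO library below every WT library, the other 11 have every KO library above, and Lgmn and Atp6v0d2 at the far right lie furthest from 1.

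The pump contributed 4 genes that rose, 3 that fell and 11 that were not called among the 18 tested, with a median log2 difference of 0.06. The share of pump genes called was 38.9%, against 30.4% of all tested genes. Within the V1 sector, 8 genes were tested and changed in both directions. Atp6v1f, the F subunit of the central stalk, had 208, 173 and 182 CPM in WT replicates 1, 2 and 3 and 144, 144 and 121 CPM in the KO libraries. All KO values were below all WT values, and the level fell by 0.46 on the log2 scale (SE 0.10, limma adjusted p = 0.00953), which was 27.3% lower. Genes on chromosome 6, where Atp6v1f lies, had a median log2 difference of -0.16, and with each chromosome centred on its own median the difference of Atp6v1f was -0.33 (limma adjusted p = 0.0438).

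Atp6v1g1, the G subunit of the peripheral stalks, had 173, 201 and 205 CPM in WT and 168, 157 and 155 CPM in KO. The groups did not overlap, but WT replicate 1 was close to KO replicate 1. The log2 difference was -0.27 (SE 0.08, limma adjusted p = 0.0404), and the call was made in 11 of 21 alternative analyses, where adjusted p ranged from 0.0034 to 0.136. It was lost on leaving out any 1 library other than WT replicate 1. Its transcript shares 5.04% of its 125-base stretches with other gene models, all pseudogenes, so some reads may be assigned among them.

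Atp6v1h, the regulatory H subunit, rose from 151, 173 and 175 CPM in WT to 205, 212 and 200 CPM in KO. Every KO library was above every WT library, and the log2 difference was 0.31 (SE 0.07, limma adjusted p = 0.0164). The call was lost without KO replicate 1 or KO replicate 2, with quantile normalization and with the replicate number as a block. The highest adjusted p over all alternatives was 0.0652. Atp6v1b2, the B2 form of the nucleotide-binding B subunit, had 232, 231 and 232 CPM in WT and 258, 278 and 257 CPM in KO. Its WT libraries were almost equal and its KO libraries all higher, with a log2 difference of 0.19 (SE 0.06, limma adjusted p = 0.0444). Because this lay near the threshold, the call was made in 10 of 21 alternatives and was lost on leaving out any 1 library other than WT replicate 1.

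The other 4 tested V1 genes were not called. Atp6v1a, the catalytic A subunit, had 771, 955 and 956 CPM in WT and 910, 931 and 906 CPM in KO. Here WT replicate 1 alone was low, and the log2 difference was 0.04 with a 95% interval of -0.17 to 0.26. Atp6v1d, the D subunit of the rotor, had 70.5, 80.8 and 77.4 CPM in WT and 92.5, 87.0 and 86.7 CPM in KO, with no overlap and an adjusted p of 0.0513 in limma. It passed in 6 of 21 alternatives, among them both count tests (edgeR adjusted p = 0.0264; DESeq2 adjusted p = 0.0103). Atp6v1c1, the C subunit whose release uncouples the sectors, had 255, 291 and 282 CPM in WT and 300, 307 and 302 CPM in KO. The groups did not overlap, yet adjusted p was 0.166 in limma. Atp6v1e1, the E subunit, overlapped between groups, with a log2 difference of 0.03 (95% interval -0.11 to 0.17).

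**Figure D2:**
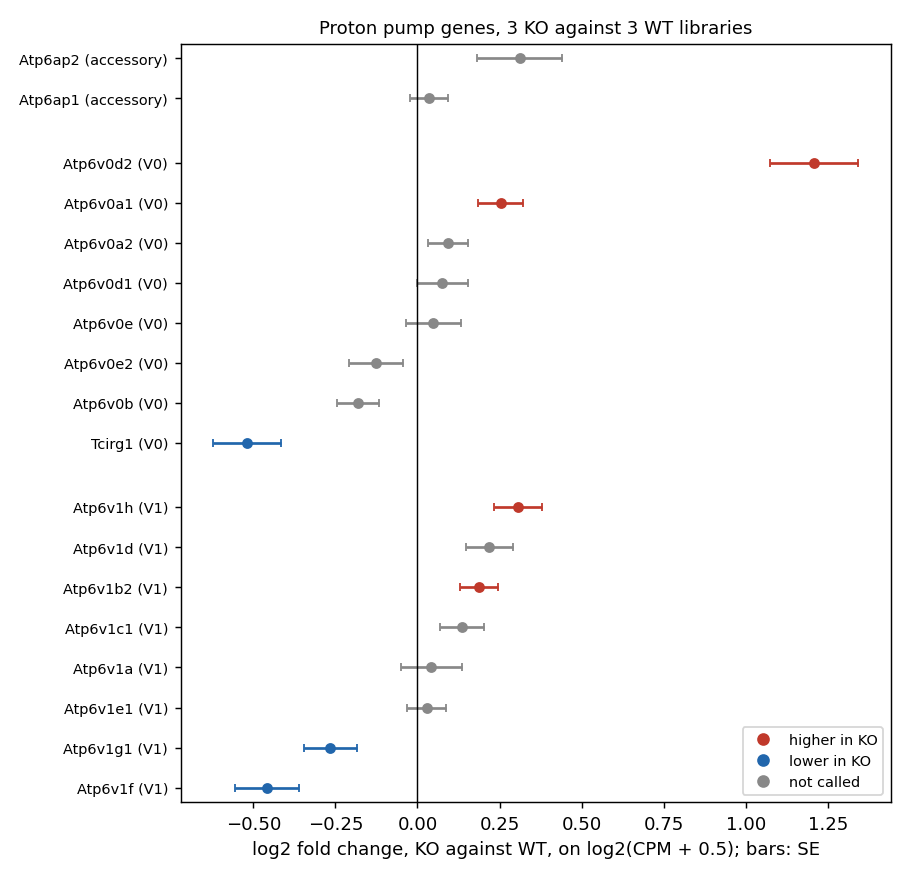
Log2 fold change of the 18 tested proton pump genes, KO against WT on log2(CPM + 0.5), with SE bars, grouped into accessory, V0 and V1 genes; red is higher, blue lower and grey not called. Atp6v0d2 lies at 1.21 and Tcirg1 at -0.52, and most of the others lie within 0.3 of 0.

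In the V0 sector 2 of 8 tested genes rose and 1 fell, and all 3 encode alternative forms of subunits a and d. Tcirg1, the a3 form found on lysosomes of macrophages and in the osteoclast ruffled border, had 341, 401 and 310 CPM in WT and 225, 242 and 263 CPM in KO. Each KO library was below each WT library, although both groups spread widely. Tcirg1 fell by 0.52 on the log2 scale (SE 0.10, limma adjusted p = 0.00736), and it was called in all 21 alternatives, with adjusted p between 2.33e-06 and 0.0402. Beside it, of the 3 tested osteoclast markers, Ctsk was also lower in KO and Nfatc1 was not called, as given above. Itgb3 was lower too, but it entered the test only through its WT libraries, so its fall is only a description. The part of these markers in the fall of Tcirg1 was not tested.

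Atp6v0a1, the a1 form best known from synaptic vesicles, had 70.4, 67.2 and 64.6 CPM in WT and 76.6, 85.0 and 79.9 CPM in KO. Its KO libraries were all higher, with a log2 difference of 0.25 (SE 0.07, limma adjusted p = 0.0253). The call was lost without WT replicate 2, WT replicate 3, KO replicate 2 or KO replicate 3. It was also lost with upper quartile scaling and with the replicate number as a block, where limma adjusted p reached 0.107. Atp6v0a2, the a2 form of the Golgi and endosomes, had 80.3, 80.0 and 83.4 CPM in WT and 83.5, 90.3 and 86.5 CPM in KO. The groups just failed to overlap, and it was called in none of the 21 alternatives. Atp6v0a4, the a4 form of kidney intercalated cells, had between 0 and 2 reads a library.

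Levels of the 3 measured a forms were then compared per kilobase of their longest coding transcript. Tcirg1 made up 77.5, 80.6 and 76.3% of subunit a transcripts in WT and 68.1, 67.6 and 70.5% in KO. It was the leading form in every library, and its share was smaller in all 3 KO libraries. The mean share was 78.1% ± 2.23 in WT and 68.8% ± 1.54 in KO (SD, n = 3; exact permutation test, two-sided p = 0.1, the smallest that 3 against 3 allows). Atp6v0a1 moved from 11.5% ± 1.06 to 17.3% ± 0.90 and Atp6v0a2 from 10.4% ± 1.26 to 13.97% ± 0.65, neither with overlap between groups. The summed level of all a forms was 147 ± 15.1 CPM per kb in WT and 116 ± 6.96 CPM per kb in KO. With the union of all exons as the length, the share of Tcirg1 was 77.1% in WT and 67.7% in KO.

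**Figure D3:**
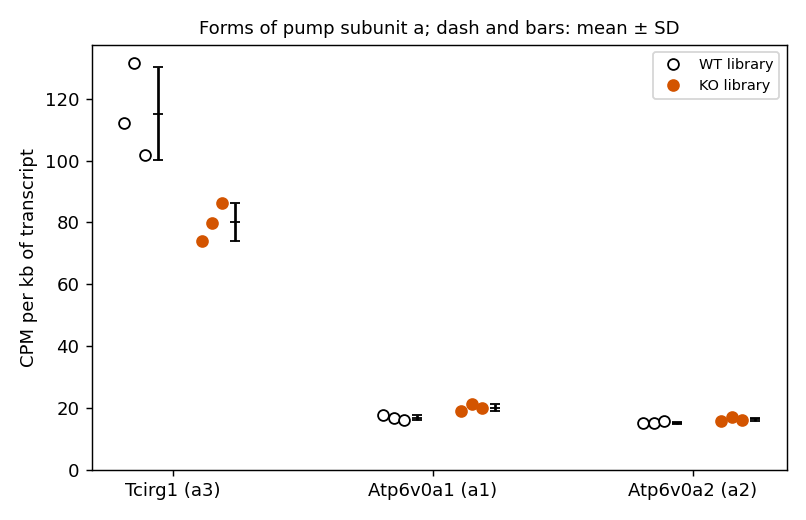
Level of the 3 measured forms of pump subunit a in CPM per kb of longest coding transcript; each circle is a library and the bars are mean ± SD of 3. Tcirg1 lies above 100 in all WT libraries and below 90 in all KO libraries, while the a1 and a2 forms stay between 14 and 22 in every library.

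Subunit d, at the junction of V0 and the central stalk, has a ubiquitous form, Atp6v0d1, and a d2 form, Atp6v0d2, known from osteoclasts, macrophages and kidney. Atp6v0d2 had 2.59, 3.80 and 3.44 CPM in WT and 7.95, 7.70 and 8.84 CPM in KO. The KO libraries were all at least 7.70 CPM and no WT library passed 3.80 CPM. This was 2.49-fold higher, the largest change among the tested lysosomal genes. The log2 difference was 1.21 (SE 0.13, limma adjusted p = 0.000454), and it was called in all 21 alternatives. Among these, the filter with a minimum of 5 CPM admitted Atp6v0d2 only through its KO libraries, so that setting adds no support. The direction was opposite to that of Tcirg1 and of Ctsk, while Nfatc1, another osteoclast marker tested, was not called. Itgb3, which entered the test only through its WT libraries, was left out of this comparison. Atp6v0d1 had 178, 158 and 165 CPM in WT and 170, 192 and 166 CPM in KO, and the groups overlapped. Per kilobase, Atp6v0d2 therefore remained a minor form, at 1.255% ± 0.30 of subunit d transcripts in WT and 2.90% ± 0.40 in KO.

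Neither form of subunit e was called. Atp6v0e had 122, 113 and 124 CPM in WT and 127, 134 and 111 CPM in KO, and its share of subunit e per kilobase was 56.1% ± 1.34 in WT and 59.1% ± 1.88 in KO, with overlap. Atp6v0e2 had 63.9, 56.2 and 58.6 CPM in WT and 51.5, 59.6 and 52.6 CPM in KO. For subunits B, C, E and G a single gene (Atp6v1b2, Atp6v1c1, Atp6v1e1 and Atp6v1g1) made up over 99% of the transcripts per kilobase in each library. Their other forms were below the filter. Atp6v1b1 had 0, 3 and 2 reads in WT and 1, 0 and 0 in KO, and Atp6v1e2 had between 0 and 2 reads a library. Atp6v1c2 had 8 to 12 reads and Atp6v1g2, a neuronal form, 35 to 81 reads a library. Atp6v1g3, a kidney form, had 0 reads in every library, which allows up to 3 reads, or 0.0426 to 0.0594 CPM depending on the library, for counting error only.

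The proteolipid ring, which carries the protons, is built from the c subunit of Atp6v0c and the c″ subunit of Atp6v0b. Atp6v0b had 154, 152 and 153 CPM in WT and 138, 141 and 125 CPM in KO. Every KO library was lower, with a log2 difference of -0.18 (SE 0.07) that did not pass (limma adjusted p = 0.0707). Atp6v0c, a gene that every cell with this pump needs, had only 1 read in WT replicate 3 and 1 read in KO replicate 3. Its transcript shares 21.7% of its 125-base stretches with the pseudogene Atp6v0c-ps2, which had 0 reads in every library. Its other stretches match no other gene model. How shared reads were assigned is not stated. The reason for the low count was not tested, and no level of Atp6v0c was read from this table. Of the accessory proteins, Atp6ap1 (Ac45) had 181, 176 and 179 CPM in WT and 178, 190 and 181 CPM in KO, with overlap, and Atp6ap1l had 0 reads throughout. Atp6ap2, the prorenin receptor, had 129, 183 and 175 CPM in WT and 203, 185 and 210 CPM in KO. Its WT replicate 1 was far below the other libraries, and it did not pass in limma (log2 difference 0.31, adjusted p = 0.109) although DESeq2 called it (adjusted p = 0.0293).

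Among the 24 hydrolases and activators, all tested, 7 rose, 2 fell and 15 were not called. That was 37.5% called, against 30.4% of all tested genes, and their median log2 difference was 0.04. Their summed level was 6205 to 6534 CPM in the WT libraries and 6937 to 7609 CPM in the KO libraries, of which Lgmn was the most changed part. Lgmn encodes legumain, the asparaginyl endopeptidase that activates cathepsins and processes antigens. It had 543, 479 and 512 CPM in WT and 1021, 1067 and 955 CPM in KO. The KO libraries all exceeded the WT libraries by a wide gap, 1.98-fold in the means, with a log2 difference of 0.99 (SE 0.07, limma adjusted p = 5.83e-05) and a call in all 21 alternatives. The other peptidase of the group, Tpp1 (tripeptidyl peptidase), had 266, 279 and 273 CPM in WT and 285, 308 and 300 CPM in KO. Its groups did not overlap, but the log2 difference of 0.13 did not pass (limma adjusted p = 0.145).

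Sulfatases remove sulfate groups from glycosaminoglycans and glycolipids, and of the 5 in the group 3 rose and 1 fell, where 13.5% of all tested genes were higher and 16.9% lower. Arsb, which cuts dermatan and chondroitin sulfate, had 142, 139 and 147 CPM in WT and 214, 237 and 216 CPM in KO. All KO libraries were higher, by 1.56-fold in the means (log2 difference 0.63, SE 0.06, limma adjusted p = 0.000292). However, 52.3% of the 125-base stretches of the Arsb transcript also occur in the antisense models Gm26527 and Gm47210, which have no entry in the table, and without knowledge of strand their reads cannot be told apart from those of Arsb. Sgsh, which removes N-linked sulfate from heparan sulfate, had 16.8, 15.7 and 15.2 CPM in WT and 23.6, 25.7 and 23.5 CPM in KO. Its groups were clearly separate (log2 difference 0.59, SE 0.08, limma adjusted p = 0.00102). Its exons overlap those of Card14 over 21.6% of their length, and Card14 itself had 32.2 CPM in WT and 34.7 CPM in KO (limma adjusted p = 0.316).

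Galns, which acts on keratan and chondroitin sulfate, had 40.3, 34.6 and 34.2 CPM in WT and 45.0, 49.0 and 45.0 CPM in KO. The KO values were all higher (log2 difference 0.35, SE 0.08, limma adjusted p = 0.0175). The call was lost without WT replicate 3, KO replicate 1 or KO replicate 2, and with the replicate number as a block. Arsa, which cuts sulfatide, moved the other way, from 20.2, 18.1 and 18.7 CPM in WT to 11.8, 14.6 and 12.7 CPM in KO. It fell by 0.53 on the log2 scale (SE 0.10, limma adjusted p = 0.00492) and was called in all 21 alternatives, as were Arsb and Sgsh. The antisense gene C230037L18Rik, which overlaps 18.8% of the Arsa exons, was below 1 CPM in every library. Ids, the X-linked iduronate sulfatase, was not called with all libraries and is taken up below with WT replicate 1.

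Of 10 glycosidases, which trim sugars from glycoproteins, glycolipids and glycosaminoglycans, 2 rose, 1 fell and 7 were not called. Naglu, which removes N-acetylglucosamine from heparan sulfate, had 137, 112 and 118 CPM in WT and 87.0, 99.9 and 85.7 CPM in KO. Every KO library was lower, and the level fell by 0.43 on the log2 scale (SE 0.10, limma adjusted p = 0.0127), a call that was lost without KO replicate 1 (adjusted p = 0.0603). Man2b1, the lysosomal alpha-mannosidase, had 336, 304 and 299 CPM in WT and 358, 401 and 356 CPM in KO. The groups were apart (log2 difference 0.25, SE 0.08, limma adjusted p = 0.0424), but the call held in 10 of 21 alternatives and was lost on leaving out any 1 library other than WT replicate 1. Gla, the X-linked alpha-galactosidase A, had 144, 147 and 147 CPM in WT and 173, 174 and 157 CPM in KO. Its KO libraries were all higher (log2 difference 0.20, SE 0.06, limma adjusted p = 0.0462), with a call in 9 of 21 alternatives that was lost on leaving out any 1 library other than KO replicate 3.

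Gusb (beta-glucuronidase), Neu1 (sialidase), Gaa (acid alpha-glucosidase), Manba (beta-mannosidase), Glb1 (beta-galactosidase), Hexa (the alpha chain of beta-hexosaminidase) and Idua (alpha-iduronidase) were not called. Their log2 differences ran from -0.23 for Idua to 0.17 for Gusb. The groups overlapped in 6 of these 7, and Gusb, at 685, 621 and 654 CPM in WT and 687, 800 and 721 CPM in KO, was the exception. Heparan sulfate is taken apart by several of these enzymes in turn, and its enzymes did not move together, since Sgsh rose, Naglu fell and Gusb and Idua were not called.

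Acp2, the lysosomal acid phosphatase, had 37.5, 37.3 and 36.9 CPM in WT and 51.3, 55.6 and 52.3 CPM in KO. The KO libraries were all higher by a wide gap (log2 difference 0.51, SE 0.06, limma adjusted p = 0.000826). Acp2 lies on chromosome 2, where the median log2 difference of all 863 tested genes was 0.34, and centred on its chromosome the difference was 0.14 and no longer passed (limma adjusted p = 0.128). Its own change can therefore not be told apart from that of the chromosome as a whole. No lipid or acyl hydrolase was called in limma, edgeR or DESeq2, and none had an unadjusted p under 0.05. These 4 were Asah1 (acid ceramidase), Smpd1 (acid sphingomyelinase), Lipa (acid lipase) and Ppt1 (palmitoyl-protein thioesterase), with log2 differences from -0.12 for Smpd1 to 0.09 for Asah1. The activator proteins, which present lipids to the enzymes, gave the same picture. Psap, the saposin precursor, had 2050, 1836 and 1918 CPM in WT and 1991, 2146 and 1943 CPM in KO, and Gm2a, the GM2 activator, had 68.4, 62.6 and 65.3 CPM in WT and 67.4, 71.2 and 62.8 CPM in KO. Both overlapped between groups.

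**Figure D4:**
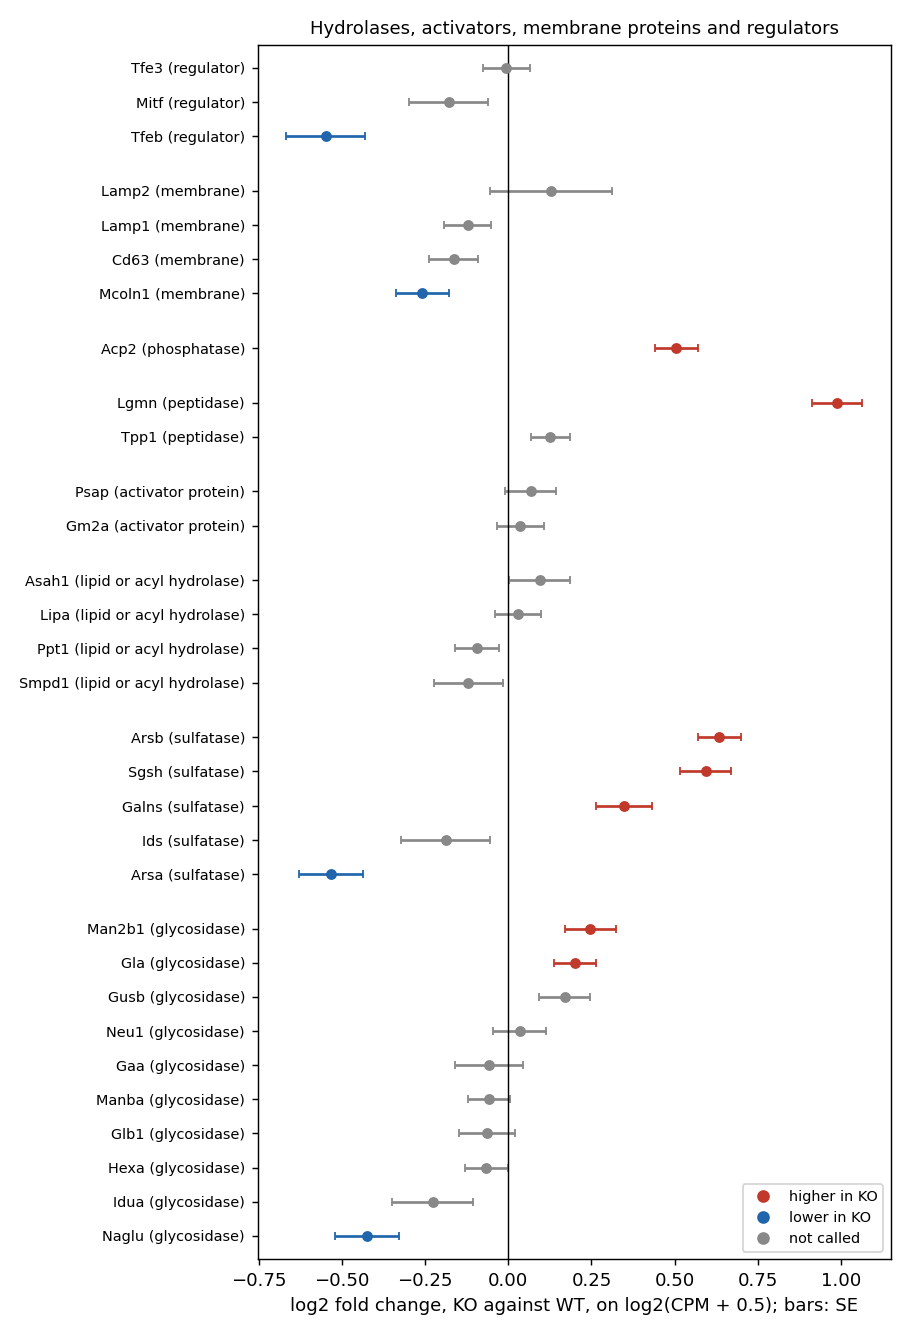
Log2 fold change of the 24 hydrolases and activators, 4 membrane proteins and 3 MiT factors, KO against WT on log2(CPM + 0.5), with SE bars, grouped by role; red is higher, blue lower and grey not called. Lgmn lies at 0.99, the sulfatases spread from -0.53 (Arsa) to 0.63 (Arsb), and the lipid hydrolases and activators stay near 0.

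Of the 4 membrane proteins, none was higher by limma, edgeR or DESeq2 or at an unadjusted p under 0.05. In limma 1 was lower, where 16.9% of all tested genes were lower. Mcoln1, the calcium channel TRPML1, had 50.3, 57.2 and 48.6 CPM in WT and 41.8, 42.9 and 45.3 CPM in KO. All KO libraries were lower (log2 difference -0.26, SE 0.08, limma adjusted p = 0.0431), but the call was made in 11 of 21 alternatives and was lost on leaving out any 1 library other than WT replicate 1. Lamp1, an abundant glycoprotein that lines the membrane, had 1851, 1889 and 1989 CPM in WT and 1771, 1819 and 1674 CPM in KO. The groups did not overlap, and the difference of -0.12 (95% interval -0.28 to 0.04) did not pass. Grtp1 overlaps 9.31% of the Lamp1 exons on the other strand and fell from 38.6 to 13.8 CPM. Cd63, a tetraspanin of late endosomes, had 165, 155 and 165 CPM in WT and 150, 151 and 132 CPM in KO, with no overlap and a log2 difference of -0.16 (limma adjusted p = 0.126).

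Lamp2, the receptor of chaperone-mediated autophagy in one of its forms, had 316, 534 and 516 CPM in WT and 505, 468 and 482 CPM in KO. WT replicate 1 stood far below the 5 other libraries and alone made the groups overlap, since the other 2 WT values were above all KO values. The log2 difference was 0.13 with all libraries and -0.12 without WT replicate 1, and neither was called. Limp2 is an older name of Scarb2, the receptor that carries beta-glucocerebrosidase to the lysosome, and the table lists it as Scarb2. Scarb2 had 107, 109 and 110 CPM in WT and 131, 139 and 133 CPM in KO, a narrow spread in each group, and rose by 0.30 on the log2 scale (SE 0.06, limma adjusted p = 0.00541). It was counted with the further membrane proteins and was looked up because of its older name.

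The MiT factors differed among themselves. Tfeb had 10.1, 7.91 and 7.98 CPM in WT and 5.43, 6.29 and 5.52 CPM in KO. Every KO library was lower, and the level fell by 0.55 on the log2 scale (SE 0.12, limma adjusted p = 0.0103). The call was lost without KO replicate 1 (limma adjusted p = 0.0529). It was also lost with quantile normalization (log2 difference -0.36, limma adjusted p = 0.102). Tfe3 had 122, 107 and 112 CPM in WT and 108, 116 and 115 CPM in KO, an overlap with a log2 difference of -0.01 (95% interval -0.17 to 0.16). Mitf had 73.6, 99.8 and 93.0 CPM in WT and 78.7, 70.8 and 84.1 CPM in KO. Here WT replicate 1 lay among the KO libraries, and Mitf was not called (log2 difference -0.18, limma adjusted p = 0.299). Per kilobase of longest coding transcript, Tfe3 averaged 33.5, Mitf 17.1 and Tfeb 3.08 CPM per kb over the 6 libraries, so the called factor was the least abundant of the 3.

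WT replicate 1 departed from the other WT libraries in a way that followed the GC content of the transcripts. Of the 49 tested genes it was the lowest WT library for 17, with a median GC content of 44.6%, and the highest for 26, with a median of 53.8%. Spearman's rho between its deviation from WT replicates 2 and 3 and GC content was 0.79 across the 49 genes and 0.76 across 10564 tested genes, as a description, since all points share the same libraries. The largest shortfalls were those of Lamp2 (-0.73 on the log2 scale), Atp6ap2 (-0.47), Ids (-0.46), Atp6v0d2 (-0.41) and Mitf (-0.39). Without it, Mitf (log2 difference -0.31, limma adjusted p = 0.0231) and Ids were called lower. Mitf lies on chromosome 6, where the median log2 difference of tested genes was -0.16 with all libraries. The fit without WT replicate 1 was not centred within chromosomes, so the part of the chromosome in the fall of Mitf was not tested. Ids had 26.2, 37.1 and 35.5 CPM in WT and 29.7, 26.1 and 29.9 CPM in KO, and its log2 difference went from -0.19 with all libraries to -0.34 without WT replicate 1 (limma adjusted p = 0.0152). Of the called genes only Gla lost its call without this library. GC content also went with the comparison of the groups. Spearman's rho between the KO against WT log2 difference and GC content was -0.38 across the 49 genes and -0.13 across all tested genes. With length and GC trends removed, Mcoln1 alone of the called genes lost its call. The part of GC content in the direction of the other calls was not tested further.

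**Figure D5:**
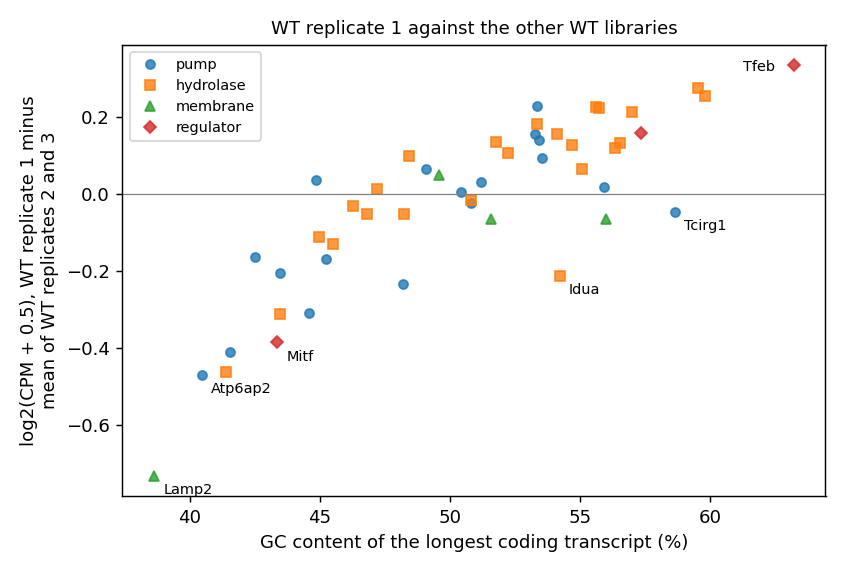
Log2(CPM + 0.5) of WT replicate 1 minus the mean of WT replicates 2 and 3 against the GC content of the longest coding transcript, 1 point for each of the 49 tested lysosomal genes, coloured by class. Points rise from Lamp2 at the lower left to Tfeb at the upper right, and Idua and Tcirg1 lie below the other genes of similar GC content.

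Levels per kilobase of longest coding transcript, averaged over the 6 libraries, set the genes in order. Lamp1 (822 CPM per kb) and Psap (745) were far above the rest, and Lgmn (383), Lipa (302), Gusb (258) and Hexa (208) followed among the hydrolases. With the union of exons as the length, Psap (722) was above Lamp1 (685), and the others followed as Lgmn (328), Hexa (208), Gusb (153) and Lipa (132). In these means, the lead of the first pair and the place of Lgmn behind it were the same by both lengths. Gusb also kept rank 4 among the hydrolases, while Lipa and Hexa traded places. By longest coding transcript, that place of Lgmn came from the KO libraries. In WT Lgmn averaged 257 CPM per kb and Lipa 299, and in KO 510 and 305. Sgsh (4.61), Arsa (4.59) and Idua (4.03) closed the list, and their ranges over the 6 libraries overlapped. The order of Sgsh and Arsa differed by group, with 3.65 and 5.45 CPM per kb in WT and 5.57 and 3.73 in KO. In the pump, Atp6v1a (214), Atp6v1f (201) and Atp6v1g1 (156) were the most abundant, and Atp6v0d2 (2.25) the least. Atp6v1f was above Atp6v1a in WT replicate 1 and below it in all KO libraries. With the union length the order of these 3 pump genes was turned round, with Atp6v1g1 at 156, Atp6v1f at 152 and Atp6v1a at 150 CPM per kb, so their order was not resolved.

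Further lysosomal genes, taken from 4 lists, were read in the same fit. Of 24 other lysosomal enzymes tested, 4 rose and 8 fell, where 13.5% of all tested genes were higher and 16.9% lower. Naaa, an acid amidase of N-acylethanolamines, rose from 17.3 ± 0.95 to 26.5 ± 0.98 CPM (log2 difference 0.61, limma adjusted p = 0.000797). Prcp, a carboxypeptidase, fell from 65.3 ± 0.83 to 46.3 ± 2.71 CPM (-0.49, limma adjusted p = 0.00119). Arsg, another sulfatase of heparan sulfate, fell from 37.5 ± 2.43 to 25.4 ± 1.04 CPM (-0.55, limma adjusted p = 0.00134), and Ggh, which trims folate polyglutamates, from 27.5 ± 2.69 to 17.3 ± 0.62 CPM (-0.65, limma adjusted p = 0.00134). None of these 4 overlapped between groups, and the list's median log2 difference was -0.07.

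Of 36 other membrane proteins and transporters tested, 8 rose and 6 fell (38.9% called, against 30.4% of all tested genes), with a median log2 difference of 0.00. Slc11a1 (Nramp1), the divalent metal transporter of phagosomes, rose from 82.3 ± 4.62 to 127 ± 12.6 CPM (log2 difference 0.62, limma adjusted p = 0.00128). Npc1, which exports cholesterol, rose from 100.4 ± 1.08 to 137 ± 9.91 CPM (0.45, limma adjusted p = 0.00229), and Litaf, a late endosomal membrane protein, from 196 ± 9.29 to 276 ± 21.9 CPM (0.49, limma adjusted p = 0.00216). Mcoln2, a channel related to Mcoln1, fell as Mcoln1 did, from 61.5 ± 5.64 to 41.5 ± 0.45 CPM (-0.56, limma adjusted p = 0.00149). Again no KO library fell within the WT range for these genes.

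The list of genes linked to nutrient sensing and to control of the MiT factors had 1 of 22 tested genes higher and 3 lower. That was 18.2% called, against 30.4% of all tested genes, with a median log2 difference of -0.05. Rragd, a Rag GTPase and itself a known target of the MiT factors, had 57, 97 and 100 reads in WT and 6, 2 and 4 reads in KO. That was 1.43 ± 0.29 CPM against 0.060 ± 0.03 CPM, near the floor in KO. Rragd reached 1 CPM only in the WT libraries, so it entered the test through the group where it was high. Its call lower is therefore only a description of these reads. The log2 difference of -1.77 on log2(CPM + 0.5) understates the change of so low a gene. Rraga, another Rag GTPase, fell from 54.2 ± 1.66 to 44.3 ± 1.06 CPM (-0.29, limma adjusted p = 0.01), and Zkscan3, a zinc finger protein described as a repressor of autophagy genes, from 42.6 ± 7.81 to 29.6 ± 3.92 CPM (-0.51, limma adjusted p = 0.0288). Ywhag, a 14-3-3 protein that binds phosphorylated partners, rose from 382 ± 5.01 to 437 ± 18.2 CPM (0.19, limma adjusted p = 0.0436).

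Of 11 tested genes for assembly and regulation of the V-ATPase, 4 fell and none rose in limma or edgeR, while DESeq2 called 1 higher; none was higher at an unadjusted p under 0.05 in limma. Rogdi, a subunit of the complex that rejoins the pump's sectors, fell from 20.1 ± 1.55 to 12.3 ± 0.57 CPM (log2 difference -0.68, limma adjusted p = 0.000806). Ncoa7, which binds the pump, fell from 41.5 ± 5.70 to 31.2 ± 3.23 CPM (-0.40, limma adjusted p = 0.036), and Ccdc115, an assembly factor of V0, from 142 ± 2.63 to 125 ± 3.28 CPM (-0.19, limma adjusted p = 0.0371). Tbc1d24 fell from 32.3 ± 4.18 to 25.8 ± 1.3 CPM (-0.31, limma adjusted p = 0.0487). The share of this list called, 36.4%, was near the 30.4% of all tested genes.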

How the data were processed

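Levels of all genes in 6 libraries (3 WT, 3 KO) were deposited by the authors as CPM, a unit that the column sums bear out; the submitters' processing notes name STAR 2.6.0a, Trim Galore and the build mm10. Counter, annotation and strand setting: not given in the sources used here. Of the CPM values, 100% came out as whole reads (tolerance 0.01), which gave the depths. Differences were tested with limma 3.58.1 (R 4.3.3) on log2(CPM + 0.5), with a mean-variance trend, keeping genes that reached 1 CPM in 3 or more libraries and adjusting over all 10614. Count tests on the whole reads (edgeR 4.0.16, DESeq2 1.42.0), other scalings, filters and pseudocounts, and leaving out each library were alternatives (edgeR called 3359 genes, DESeq2 3758); removal of a length and GC trend was added after the data were seen. On data simulated for this comparison over 10645 tested genes, 88.1% of 1.5-fold and 97.0% of 2-fold changes were recovered with 7 false calls. Genes were drawn independently there, so these false calls do not cover shifts shared across a chromosome or with GC content. Lengths, GC content and overlaps came from GENCODE M21, and promoters from RefSeq. The least different pair of libraries had a chi-square of 41.9 per degree of freedom, so none was a copy. The members and lists were chosen with earlier results of these data known. Values by library are given for called genes of each class, for all membrane proteins and MiT factors and for alternative subunit forms. From each further list up to 4 called genes with the lowest adjusted p are named. Intervals and floors cover counting error or the spread between these libraries only.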

Additional observations from a re-analysis of the deposited data

How the results depend on the processing

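Of the 18 called genes, 7 were called under all 21 alternatives (Arsa, Tcirg1, Atp6v1f, Sgsh, Arsb, Lgmn and Atp6v0d2) and none changed sign; 23 of the 31 others were called under none. The 29 sign changes concerned 14 uncalled genes, none called after the change, and the cause was not tested. Upper quartile scaling turned the log2 differences of Gm2a (-0.011), Lipa (-0.019), Neu1 (-0.013), Atp6ap1 (-0.013), Atp6v1a (-0.0061) and Atp6v1e1 (-0.020), and quantile normalization those of Atp6ap1 (-0.055), Atp6v0e (-0.0093) and Atp6v1e1 (-0.034). Tfe3 turned to 0.020 with TMM, 0.016 with edgeR, 0.018 with DESeq2, 0.0020 when centred within chromosomes and 0.066 with length and GC trends removed. Atp6v0e2 turned to 0.0061 when centred, and Gaa (0.014), Glb1 (0.014) and Hexa (0.030) turned with length and GC trends removed. Leaving out 1 library gave -0.0096 to 0.15 for Asah1, -0.13 to 0.034 for Gaa, -0.0068 to 0.083 for Gm2a, -0.015 to 0.059 for Lipa, -0.023 to 0.10 for Neu1, -0.12 to 0.26 for Lamp2, -0.010 to 0.13 for Atp6v0e, -0.062 to 0.094 for Atp6v1a and -0.051 to 0.046 for Tfe3.

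The number of pump genes called higher was 2 with upper quartile scaling and with quantile normalization, 8 once length and GC trends were removed, and 1 to 4 on leaving out 1 library. The number of hydrolases was then 4 to 6 higher and 1 to 3 lower, and the count of all genes 1973 (without KO replicate 1) to 3761 (without WT replicate 1). Once length and GC trends were removed, 5199 genes were called. The 1 membrane protein called lower, Mcoln1, became 0 without the filter, without the limma trend, centred within chromosomes, after the GC removal and without any 1 library other than WT replicate 1. Of all called genes 44.5% were higher, against 34.1% with upper quartile scaling and 58.1% after the GC removal.

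Replicate numbers gave no sign of pairing the libraries. Over all tested genes, deviations from the group mean correlated at -0.25, -0.64 and -0.17 between same-numbered WT and KO libraries. Differently numbered pairs ran from -0.44 (WT replicate 1 with KO replicate 3) to 0.61 (WT replicate 2 with KO replicate 3). With the replicate number as a block 2009 genes were called, with 1 pump gene and 4 hydrolases higher and 0 membrane proteins lower. The minimum of 1 CPM in 3 libraries left 9 pump genes untested.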
